A study of Mus musculus with 6 samples.

Results

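Cdk6 and its partners in the G1 phase of the cell cycle were examined in ATAC-seq peak lists of murine MLL-AF9 leukemia cells. The genes were Cdk6, Cdk4, Ccnd1, Ccnd2, Ccnd3, Cdkn1b, Cdkn2c, Rb1, E2f1 and Ccne1, and every peak overlapping the body of 1 of these 10 genes, or the 50 kb on either side of it, was taken (mm10, GENCODE M21). Overlapping peaks of the 6 lists were merged into regions, of which 202 of 112852 lay in the 10 windows, holding 908 of 438111 peaks. The study treated L-GMP cells, the leukemic granulocyte-macrophage progenitors that serve as leukemia stem cells (LSCs) in this mouse model, with mycophenolate mofetil (MMF), an inhibitor of guanine nucleotide synthesis. There were 3 control samples and 3 samples treated with MMF for 24 h according to the labels, and the comparison asks where chromatin accessibility differed between them. All 6 samples carried the MLL-AF9 oncogene, were labeled WT for genotype, and were grown in RPMI1640 with fetal bovine serum and mouse IL3 and sorted. The study's text is not uniform on the time and dose of MMF for this assay, and the time of the labels is used here. The labels give neither the dose nor a vehicle for the controls, and they do not say whether the samples of a group came from separate mice or cultures, so each p-value below measures only the spread between these samples, which may be technical.

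D-type cyclins (Ccnd1, Ccnd2, Ccnd3) bind CDK4 and CDK6, and the active kinases phosphorylate the retinoblastoma protein RB (Rb1), which then releases E2F factors such as E2F1. E2F factors drive genes of DNA replication and of cyclin E (Ccne1), which carries the cell into S phase with CDK2, while p18 (Cdkn2c) and p27 (Cdkn1b) are inhibitors of cyclin-dependent kinases. Cdk6 is a known target gene of MLL fusion proteins and a kinase on which leukemias with such a fusion depend.

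The sequences below are those of the regions on which the results turn, namely the promoter regions of Cdk6, Cdk4 and E2f1, 2 intronic regions of Cdk6, both regions of the Rb1 window with the largest differences, and the strong region downstream of Cdkn1b. Each is the part of the 200 bp around the summit that lies outside untranslated exons, on the plus strand of GRCm38. Capitals mark matches to the consensus letters of NF-Y (CCAAT, read as ATTGG on the other strand), RUNX (AACCACA) or AP-1 (TGANTCA). A distance runs from the start of the gene to the summit of the region, along the direction of transcription. A promoter region is one within 1 kb of a transcription start, so its summit need not lie at a start.
Cdk6 promoter region at 3.08 kb (chr5:3344461-3344660, plus strand): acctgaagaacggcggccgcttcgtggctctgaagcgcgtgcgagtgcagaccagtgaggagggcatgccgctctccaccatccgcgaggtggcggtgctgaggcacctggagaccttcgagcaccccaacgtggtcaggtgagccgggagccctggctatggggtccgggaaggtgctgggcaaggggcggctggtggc
Cdk6 intron at 63.8 kb, higher in every MMF sample (chr5:3405226-3405425, plus strand): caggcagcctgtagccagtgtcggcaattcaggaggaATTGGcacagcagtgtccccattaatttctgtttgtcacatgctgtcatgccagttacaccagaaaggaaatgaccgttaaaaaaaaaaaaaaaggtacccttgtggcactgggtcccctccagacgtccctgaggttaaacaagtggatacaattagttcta
Cdk6 intron at 120.2 kb, a peak in MMF lists only (chr5:3461535-3461734, plus strand): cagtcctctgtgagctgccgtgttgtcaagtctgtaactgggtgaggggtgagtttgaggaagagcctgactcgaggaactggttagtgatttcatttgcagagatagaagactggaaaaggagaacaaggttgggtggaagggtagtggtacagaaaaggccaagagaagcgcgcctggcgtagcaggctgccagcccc
Cdk4 promoter (chr10:127063337-127063533, plus strand): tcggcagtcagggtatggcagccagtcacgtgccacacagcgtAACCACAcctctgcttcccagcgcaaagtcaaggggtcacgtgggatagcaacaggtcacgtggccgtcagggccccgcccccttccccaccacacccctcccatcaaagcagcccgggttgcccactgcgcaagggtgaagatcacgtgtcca
Cdkn1b at 8.41 kb, lower in every MMF sample (chr6:134928715-134928914, plus strand): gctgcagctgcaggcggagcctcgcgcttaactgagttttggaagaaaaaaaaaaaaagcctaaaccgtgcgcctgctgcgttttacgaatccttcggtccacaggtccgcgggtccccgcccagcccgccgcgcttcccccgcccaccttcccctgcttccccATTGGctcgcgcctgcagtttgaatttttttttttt
Rb1 intron at 103 kb, the largest difference (chr14:73222667-73222866, plus strand): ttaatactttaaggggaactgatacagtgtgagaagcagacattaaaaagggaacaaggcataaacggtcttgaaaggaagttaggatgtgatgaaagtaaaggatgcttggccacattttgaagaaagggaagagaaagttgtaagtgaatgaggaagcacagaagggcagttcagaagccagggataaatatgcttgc
Rb1 window at -38.2 kb, in an intron of Itm2b (chr14:73363888-73364087, plus strand): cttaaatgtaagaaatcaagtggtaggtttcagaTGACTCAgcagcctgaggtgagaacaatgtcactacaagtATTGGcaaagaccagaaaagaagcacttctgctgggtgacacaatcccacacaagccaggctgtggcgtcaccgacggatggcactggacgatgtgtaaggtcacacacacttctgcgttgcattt
E2f1 promoter (chr2:154569893-154570032, plus strand): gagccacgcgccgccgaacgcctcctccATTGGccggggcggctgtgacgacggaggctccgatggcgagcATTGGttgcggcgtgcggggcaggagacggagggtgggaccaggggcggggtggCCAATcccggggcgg
Of these, the E2f1 promoter held 3 matches to CCAAT, and the Rb1 region at -38.2 kb held an AP-1 match and a CCAAT match. The Cdk6 promoter region, the Cdk6 intron at 120.2 kb and the Rb1 region at 103 kb held no match to any of the 8 motifs searched. A match is a property of the letters and not a measured binding site.

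Peaks had been called on each sample by itself, with 58496 to 63911 peaks in the control lists and 80893 to 86556 in the MMF lists on chromosomes 1 to 19, X and Y. The height of a peak is given here as summit signal, the reads over its summit divided by the genome-wide background of the sample, as estimated from its peaks. The median summit held 14 to 19 reads, and 14 reads carry an exact 95% Poisson interval of 7.65 to 23.5, which covers counting error only. The myeloid identity of the cells was visible in the promoters, since 9 of 10 myeloid progenitor genes had a promoter peak, 7 of them in all 6 lists (Kit, Spi1, Cebpa, Csf3r, Ptprc, Meis1 and Hoxa9). Mpo had none. Of 10 genes of T cells, B cells, erythroid cells, liver and epithelium, 7 had no promoter peak in any list, including Cd3e and Gata1. Summed over the 7 shared myeloid promoters, the signal was 414 to 469 in the controls and 416 to 483 in the MMF samples. Single promoters moved in both directions, with Spi1, Csf3r and Ptprc higher and Cebpa, Meis1 and Hoxa9 lower in every MMF sample, 3 of 7 each way, and the part of such shifts in the results below was not tested. In such bulk samples a change in the share of cells with an open region and a change within each cell cannot be told apart.

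Regions around the G1 regulators were shared between the groups more often than they were gained or lost. Of the 202 regions, 97 (48.0%) had a peak in all 6 lists and are called shared, against 36.5% of all regions. A further 5 were gained, with a peak in 3 of 3 MMF lists and 0 of 3 control lists. That was 2.48%, below the 6.0% of all regions that were gained. No region was lost by the same rule in reverse, where 0.182% of all regions were. The other 100 regions had peaks in some lists of a group. Of these, 63 (63.0%) had a peak in more MMF than control lists and 22 (22.0%) in more control than MMF lists. Over all such regions of the genome the shares were 71.4% and 18.2%.

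The lists of the MMF samples held more peaks in 4 of the 10 windows in every sample, which was also the case for 39.5% of the windows of all protein-coding genes. In the Cdk6 window 27, 29 and 25 peaks were listed for the controls and 36, 38 and 36 after MMF. The Cdk4 window held 10, 13 and 14 peaks in the control lists and 19, 19 and 16 in the MMF lists. In the Ccnd2 and Rb1 windows the counts also did not overlap, with 12, 10 and 12 against 17, 13 and 17 peaks for Ccnd2 and 14, 18 and 17 against 19, 25 and 20 for Rb1. No window had fewer peaks in every MMF list, as 0.122% of all windows did. Over all 10 windows there were 136 ± 4.93 peaks per control list and 166 ± 4.51 per MMF list (SD, n = 3 each; exact permutation p = 0.1, two-sided, the smallest that 3 against 3 samples can give). The order turned once the length of the lists was taken into account. Per 10000 peaks of a list, the 10 windows held 22.1 ± 1.71 peaks in the control and 19.6 ± 0.320 in the MMF samples (SD, n = 3 each; exact permutation p = 0.1). On that scale none of the windows was higher in every MMF sample, as 9.18% of all windows were, and the Ccnd3 and Cdkn2c windows were lower in every MMF sample, as 19.9% of all windows were. For Cdk6 the counts per 10000 peaks were 4.22, 4.67 and 4.27 in the control and 4.16, 4.41 and 4.45 in the MMF samples, so that these overlapped.

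**Figure D1:**
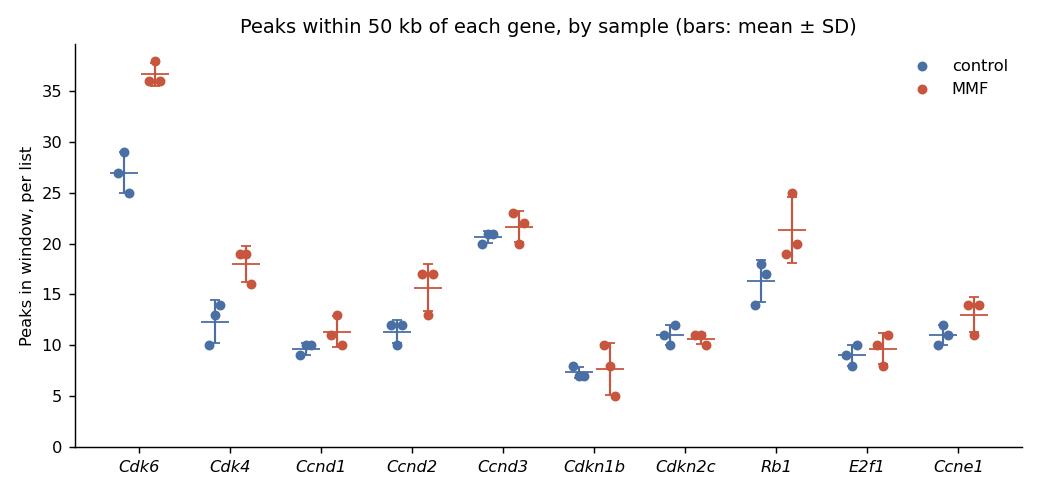
Number of peaks (vertical axis) in the window of each of the 10 genes, the gene body plus 50 kb on either side (horizontal axis), in the 3 control and the 3 MMF lists. Points are samples and bars give mean ± SD. The Cdk6 window holds 25 to 29 peaks in the control and 36 to 38 in the MMF lists, and the counts of the windows of Cdk4, Ccnd2 and Rb1 do not overlap either.

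The 97 shared regions were tested with limma on scores made from the rank of each peak's fold enrichment within its sample, with the Benjamini-Hochberg adjustment over all 41182 shared regions of the genome. Of the 97, 0 were called higher and 0 lower at an adjusted p of 0.05, where 1.44% of all shared regions were called higher and 0.425% lower. The lowest adjusted p of a member region was 0.0744, at an intronic region of Ccnd3. At an unadjusted p under 0.05 there were 12 higher and 11 lower member regions, and the shares over all shared regions were 12.01% and 11.2%. The same test on log2 summit signal, an alternative measure, called 15 regions higher and 0 lower, where it called 18.6% of all shared regions higher and 0.969% lower. Of those 15 regions, 6 lay in the Rb1 window and 4 in the Cdk6 window.

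By summit signal, 24 of the 97 shared regions (24.7%) were higher in every MMF sample than in every control sample, and 29.1% of all shared regions were. Those lower in every MMF sample numbered 4 (4.12%), against 7.68% of all shared regions. The median difference was 0.08 on the log2 scale, with 57 of the 97 regions higher on average after MMF, and the median over all shared regions was 0.17 with 64.6% higher. Without the Rb1 window the median of the remaining 85 regions was 0.03, and 16 of them (18.8%) were higher in every MMF sample. The direction of these medians rests on the scaling. Centring each sample on the median of its shared regions moved every difference by -0.35, to -0.28 for the member regions and -0.19 for all shared regions, and left 30 of the 97 (30.9%) and 36.0% of all higher after MMF. On the centred scale 10 member regions (10.3%) were higher and 37 (38.1%) lower in every MMF sample, and 12.5% and 31.1% of all shared regions were. The gap of -0.09 between the median of the member regions and that of all shared regions is the same on either scale, since centring shifts both alike, and no test was made of it.

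**Figure D2:**
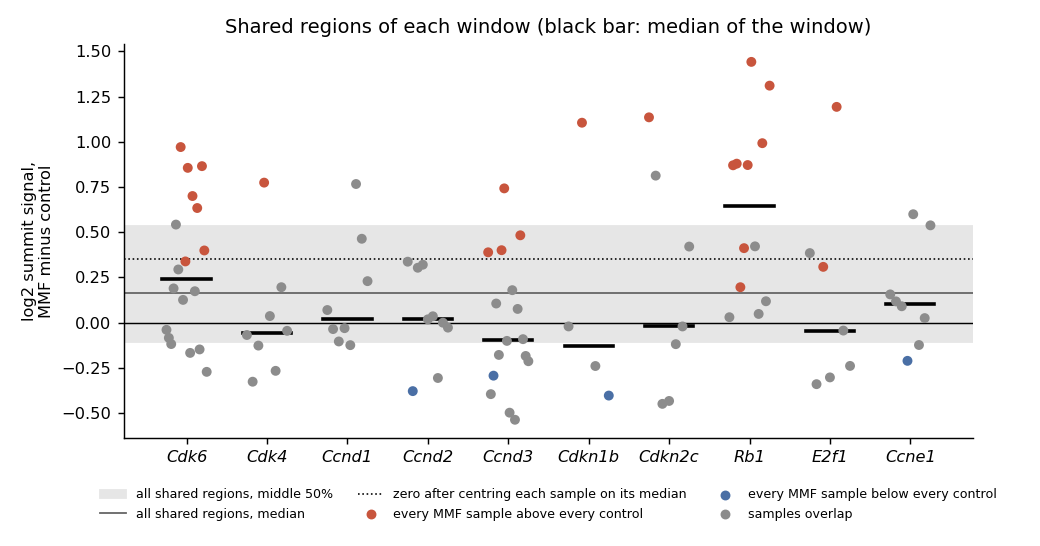
Difference in mean log2 summit signal, MMF minus control (vertical axis), of each shared region in the windows of the 10 genes (horizontal axis). Red points have every MMF sample above every control sample, blue points the reverse, and gray points overlap; the black bar is the median of a window. The Rb1 window has 12 of 12 points above zero and a median of 0.65, while the gray band, the middle of all 41182 shared regions, runs from -0.11 to 0.53.

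In summit signal without centring, promoters and regions away from promoters differed in the sign of their medians. The windows held 27 shared promoter regions, of the members or of neighboring genes, with a median log2 difference of -0.08 and 70.4% of them lower after MMF. The median over all shared promoter regions was -0.09, with 65.2% lower. The 70 other shared regions of the windows had a median of 0.21, with 30.0% lower, where all other shared regions had a median of 0.32 and 23.8% lower. On the centred scale, which shifts both groups by the same amount, both medians of the windows were negative, at -0.44 and -0.14. There 21 of the 27 promoter regions (77.8%) were lower in every MMF sample, beside 64.0% of all shared promoter regions. None was higher in every MMF sample, where 2.14% of all shared promoter regions were.

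At the promoters of 9 of the 10 genes a region was open in every sample. By summit signal without centring, the highest such region was never separated between control and MMF samples. A promoter region lies within 1 kb of a transcription start of the gene, and the highest shared one was used. For Ccnd1, encoding cyclin D1, there was no peak within that distance, and the nearest shared region lay at -1.72 kb with a summit signal of 60.4, 50.6 and 56.4 in the control and 53.9, 49.6 and 60.6 in the MMF samples. Among the other 9 genes 3 were higher and 6 lower on average in summit signal, and 0 had samples that did not overlap on that measure. In percentile rank by fold enrichment, the differences ran from -24.7 at E2f1 to 10.0 at Cdkn2c. Of the highest promoter regions of all genes, 6.66% were higher and 17.1% lower in every MMF sample. No promoter of the 9 genes was called by limma on rank scores, with adjusted p from 0.190 to 0.621, and that test called 0.143% of the highest promoter regions of all genes higher and 0.372% lower.

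The Cdk4 promoter (chr10:127063203-127063934) was the highest of the 9, with a summit signal of 144, 166 and 193 in the controls and 136, 170 and 154 in the MMF samples. Its log2 difference was -0.13 ± 0.18 (limma SE), within the spread of the samples. The E2f1 promoter (chr2:154568901-154570466) had a signal of 128, 123 and 111 in the control and 86.9, 129 and 76.9 in the MMF samples, the lowest difference of the 9 at -0.34 ± 0.21. A single MMF sample, replicate 2, lay above all controls, so the groups overlapped (exact permutation p = 0.4, n = 3 each). The Cdkn1b promoter showed 132, 110 and 85.5 against 80.3, 89.2 and 105. The Ccne1 promoter showed 101, 117 and 98.4 against 91.3, 105 and 94.6, and again the groups overlapped.

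At the promoter of Cdk6 the summit signal varied little between samples. The higher region of this gene (chr5:3343537-3344624) had its summit 3.08 kb into the gene and lay within 1 kb of another annotated start. Its signal was 59.0, 65.1 and 64.5 in the control and 59.4, 58.1 and 56.2 in the MMF samples, a log2 difference of -0.12 ± 0.15 (limma SE). The region over the annotated start had 43.9, 44.8 and 48.4 in the control and 38.5, 45.3 and 45.8 in the MMF samples. In summit signal the groups overlapped at both regions. By percentile rank of fold enrichment among shared regions, the higher region stood at 10.7 ± 2.52 in the control and 4.09 ± 0.787 in the MMF samples (SD, n = 3 each). Limma on rank scores gave it an unadjusted p of 0.0399 and an adjusted p of 0.196. Ranked by −log10 p, its difference was -17.9 percentile points. Rb1 had the lowest promoter of the 9, at 37.0, 41.9 and 49.99 in the control and 40.7, 51.0 and 41.4 in the MMF samples. For Cdkn2c the values were 72.7, 78.1 and 90.3 in the control and 68.2, 86.4 and 68.0 in the MMF samples. The Ccnd2 promoter, 1.12 kb downstream of the annotated start, ranged from 37.0 to 67.7 in the control and from 42.5 to 67.1 in the MMF samples. On the centred scale all 9 promoters were lower after MMF, as were 92.8% of the promoters of all genes.

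**Figure D3:**
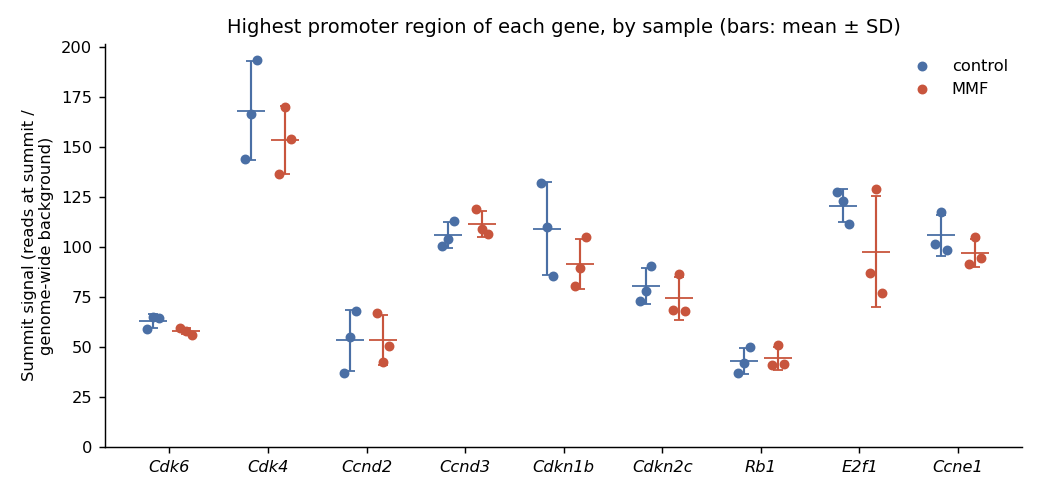
Summit signal (vertical axis, reads over the summit divided by the genome-wide background) of the highest shared promoter region of 9 genes (horizontal axis; Ccnd1 had none) in 3 control and 3 MMF samples. Points are samples and bars give mean ± SD. Signals run from 37.0 at Rb1 to 193 at Cdk4, and the samples of the 2 groups overlap for each gene.

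Cdk6 is the longest of the 10 genes, 189524 bp from start to end, and its window held the most regions, 39, of which 33 lay within the gene. Its 18 shared regions had a median log2 difference of 0.24, with 12 higher and 6 lower on average, where 64.6% of all shared regions were higher. Of the 18, 7 were higher and 0 lower in every MMF sample, beside 29.1% and 7.68% of all shared regions. Those 7 all lay between 63.8 and 161 kb from the start. After centring, 7 of the 18 were higher on average and the median was -0.11. The highest region outside promoters, at -40.2 kb (chr5:3300782-3301600), had a signal of 89.2, 108 and 102 in the control and 88.0, 110 and 93.1 in the MMF samples, which overlapped. The next highest, in an intron at 161 kb, was higher in every MMF sample, with 90.6, 72.3 and 69.3 in the control and 104, 97.7 and 102 in the MMF samples.

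Within the gene, the intronic region 63.8 kb from the start (chr5:3404807-3405545) had a summit signal of 32.9, 23.1 and 22.6 in the control and 45.1, 69.4 and 41.4 in the MMF samples, a log2 difference of 0.97 ± 0.24 (limma SE). At 98.1 kb (chr5:3439437-3439762) the signal was 32.9, 24.6 and 22.6 against 50.6, 46.7 and 45.8, a difference of 0.86 ± 0.19. Every MMF sample exceeded every control sample in both regions. A run of 5 strong regions lay between 149 and 161 kb, and 3 of the 5 were separated in the same way. At 156 kb (chr5:3497493-3497951) the signal was 39.8, 56.4 and 64.5 in the control and 94.6, 96.3 and 96.1 in the MMF samples. At 151 kb it was 52.1, 56.4 and 46.8 against 68.2, 86.4 and 87.2. Their neighbor at 153 kb lay in between and did not follow, with 76.8, 65.1 and 98.4 in the control and 77.0, 72.2 and 65.0 in the MMF samples. Limma on log2 summit signal called 18.6% of all shared regions higher. In this window it called the 4 regions at 63.8, 98.1, 151 and 156 kb, with adjusted p from 0.0112 to 0.0305. They were named after their values were seen, and limma on rank scores called none of the 4, with adjusted p from 0.0813 to 0.418.

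**Figure D4:**
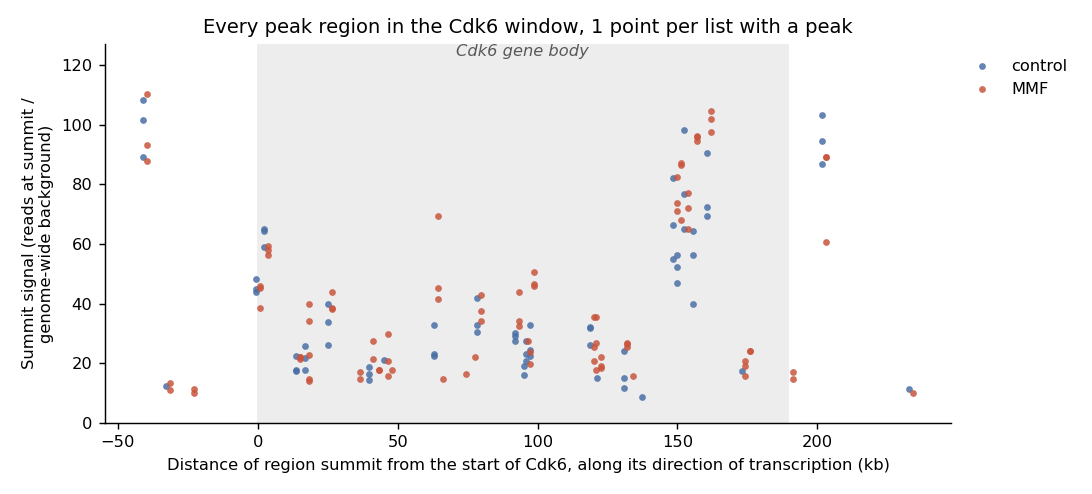
Summit signal (vertical axis) of every region in the Cdk6 window against the distance of its summit from the start of Cdk6 (horizontal axis, kb), with 1 point for each list that holds a peak there; the shaded band is the gene. The run of regions with high summit signal near 150 kb includes a region at 156 kb. There MMF samples sit at 94.6 to 96.3 and control samples at 39.8 to 64.5, while the points of both groups overlap near the start.

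At Cdk4, the kinase that shares the D cyclins with Cdk6, the window is crowded with 9 other coding genes. It held 8 shared regions, 3 higher and 5 lower on average. Of all shared regions, 29.1% were higher and 7.68% lower in every MMF sample. The only region of this window separated in either direction was 269 bp long and lay 5.03 kb from the start, in an exon of Tspan31 (chr10:127068415-127068683). It had a signal of 28.8, 34.7 and 43.5 in the control and 55.0, 62.3 and 63.6 in the MMF samples, with an adjusted p of 0.0191 by limma on log2 summit signal and 0.126 on rank scores.

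Of the D-type cyclins, Ccnd1 and Ccnd2 had no region that was higher in every MMF sample. Ccnd3 had 4 of 16 shared regions, beside 29.1% of all shared regions. In the Ccnd1 window 4 of 8 shared regions were higher and 4 lower on average, with a median of 0.02 on the log2 scale. The highest, at the promoter of LTO1, read 136, 120 and 137 in the control and 133, 130 and 120 in the MMF samples. The Ccnd2 window had a median of 0.02 over 9 shared regions. Its separated region was the promoter of Tigar, a regulator of glycolysis (chr6:127109304-127109923), with a signal of 106, 91.1 and 96.7 in the control and 60.5, 87.8 and 79.8 in the MMF samples. It was lower in every MMF sample, at a log2 difference of -0.38 ± 0.19 and an adjusted p of 0.152 by limma on rank scores.

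At Ccnd3, whose cyclin D3 acts in many blood cell lineages, the annotated start had a peak only in MMF replicate 1. The open promoter regions lay within 1 kb of starts of shorter transcripts, with summits 88.4 and 90.6 kb into the gene. The region at 88.4 kb (chr17:47593247-47593910) had a signal of 100, 104 and 113 in the control and 119, 109 and 106 in the MMF samples, which overlapped. The region at 90.6 kb had 70.0, 78.1 and 69.3 in the control and 101, 105 and 97.6 in the MMF samples. It was higher in every MMF sample by 0.48 ± 0.16 on the log2 scale, with adjusted p of 0.0554 by limma on log2 summit signal and 0.964 on rank scores. In contrast, the promoter of Taf8 beside the start of Ccnd3 (chr17:47501889-47502643), the highest other region of the window, was lower in every MMF sample at 139, 129 and 123 against 165, 153 and 160 in the control samples. Over the 16 shared regions of the window the median was -0.10, with 7 higher and 9 lower on average.

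Around the kinase inhibitors, strong regions near the genes were lower or overlapped, and a distal region of each was higher. For p27, the region 8.41 kb downstream of the Cdkn1b start (chr6:134928046-134929261), between genes, had a signal of 129, 113 and 111 in the control and 79.2, 90.7 and 97.6 in the MMF samples. Its log2 difference of -0.40 ± 0.17 was the largest of the 4 regions lower in every MMF sample, and its adjusted p was 0.26 on rank scores and 0.123 on log2 summit signal. At -13.4 kb (chr6:134906664-134907177) a weak region read 13.7, 10.1 and 12.9 in the control and 26.4, 26.9 and 25.1 in the MMF samples, or 7 to 10 reads against 17 to 24. The region of the p18 gene Cdkn2c that stood apart lay at 54.5 kb, within the noncoding gene Gm12811 (chr4:109612446-109613028), with 39.8, 30.4 and 45.1 in the control and 83.6, 83.6 and 82.8 in the MMF samples. Both distal regions were called higher by limma on log2 summit signal, with adjusted p of 0.00304 and 0.00343, and not on rank scores, with 0.0777 and 0.171. The highest other region of the Cdkn2c window, the promoter of Faf1, had 113, 116 and 99.97 in the control and 109, 109 and 105 in the MMF samples, which overlapped.

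In the Rb1 window 12 of 12 shared regions were higher on average after MMF, and 8 of them in every sample, whereas each of the other 9 windows also held regions that were lower. Of all shared regions, 64.6% were higher on average and 29.1% in every MMF sample. The median log2 difference of the 12 was 0.65, which lay at the 96.9th percentile of the medians of 12678 gene windows with at least 4 shared regions. The other 9 windows stood at percentiles from 13.8 (Cdkn1b) to 75.2 (Cdk6). The Rb1 window was picked out as the highest of the 10 after its values were seen. Of 1219 windows with at least 12 shared regions, 14 (1.15%) had every shared region higher, and these windows overlap each other. After centring, 8 of the 12 were higher and the median was 0.29. The window also spans Rcbtb2, Lpar6 and Itm2b, and 6 of the 12 regions lay in Rcbtb2 or at its promoter.

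The largest difference of any member region was in an intron of Rb1 itself, 103 kb from its start (chr14:73222384-73222943). Its summit signal was 35.7, 37.6 and 33.9 in the control and 85.8, 92.1 and 115 in the MMF samples, from 26, 26 and 21 reads and 78, 65 and 78 reads. The fold was 2.72 and the log2 difference 1.44 ± 0.17 (limma SE), and it remained 1.09 after centring. Its deposited fold enrichment, which divides by the background around the peak, was 13.1, 12.7 and 11.4 in the control and 18.5, 17.1 and 22.2 in the MMF samples, and on that scale, centred, the difference was 0.37. The adjusted p was 0.00139 by limma on log2 summit signal and 0.106 on rank scores. In an intron of Itm2b at -38.2 kb (chr14:73363685-73364349) the signal was 26.1, 17.4 and 25.8 against 45.1, 58.1 and 68.0, a difference of 1.31 ± 0.22. Again every MMF sample lay above every control sample. The highest other region, beyond the end of Rb1 in an intron of Rcbtb2 (chr14:73175691-73176476), differed less, with 82.3, 79.5 and 85.5 in the control and 92.4, 106 and 85.7 in the MMF samples, and the promoter of Rcbtb2 had 48.0, 43.4 and 49.99 against 47.3, 45.3 and 51.7.

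**Figure D5:**
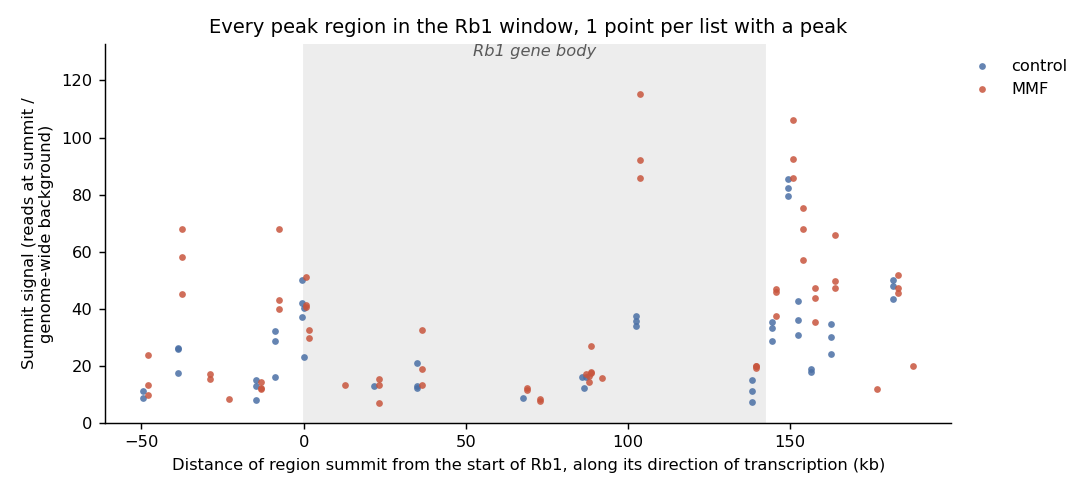
Summit signal (vertical axis) of every region in the Rb1 window against the distance of its summit from the start of Rb1 (horizontal axis, kb), with 1 point for each list that holds a peak there; the shaded band is the gene. At 103 kb the MMF samples sit at 85.8 to 115 and the control samples at 33.9 to 37.6, and at the start of the gene the 2 groups overlap.

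Downstream of RB, the E2f1 window held 7 shared regions with a median log2 difference of -0.04. Of the 7, 2 were higher in every MMF sample, beside 29.1% of all shared regions. The larger difference was in an intron of Pxmp4 at -27.7 kb (chr2:154597375-154597858), with a signal of 17.8, 20.2 and 12.9 in the control and 33.0, 43.9 and 38.4 in the MMF samples. That was 2.29-fold, or 1.19 ± 0.21 on the log2 scale, with adjusted p of 0.00453 on log2 summit signal and 0.122 on rank scores by limma. The strongest region of the window, the promoter of Pxmp4, had 155, 165 and 171 in the control and 151, 156 and 170 in the MMF samples, which overlapped. In the Ccne1 window, which holds no other coding gene, the highest region outside the promoter lay 22.5 kb from the start, beyond the end of the gene (chr7:38084625-38085807). It was lower in every MMF sample, at 109, 102 and 115 against 129, 127 and 121, a log2 difference of -0.21 ± 0.16.

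The 5 gained regions were weak or beside a stronger region. In Cdk6, the region at 120.2 kb (chr5:3461496-3461778) had a summit signal of 17.6, 26.9 and 35.5 in the MMF samples and lay 147 bp from a shared region. Upstream of the Cdk4 promoter, a region of 187 bp at -0.852 kb had 46.2, 42.5 and 45.8 and lay 402 bp from the next region. The others lay in an intron of Os9 in the Cdk4 window (12.1, 19.8 and 16.3), at the promoter of Fgf15 in the Ccnd1 window (22.0, 14.2 and 17.7) and at -27.1 kb of Ccne1 (16.5, 15.6 and 13.3). A missing peak means a signal under the calling threshold and not a signal of zero. With the same number of peaks taken from every list, the regions beside Cdk4, at Fgf15 and at Ccne1 remained gained, 3 of the 5.

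The wider pathway was examined through promoters. Of 25 other G1 and S phase regulators, 25 had a promoter region in all 6 lists, and limma on rank scores called 0 of the 25, where it called 0.143% of all highest promoter regions higher and 0.372% lower. Their median log2 difference was -0.16, with 4 higher and 21 lower on average, and the median over all 10474 highest promoter regions was -0.10, with 67.1% lower. In every MMF sample 1 promoter was higher, Cdkn2a, and 4 were lower, Ccnh, Cdkn1a, Cdkn1c and Fbxw7. These counts of 1 and 4 of 25 stand beside 6.66% higher and 17.1% lower of all highest promoter regions. The largest difference was at Cdkn1c, encoding the kinase inhibitor p57, with 39.8, 33.3 and 46.8 in the control and 25.3, 25.5 and 19.2 in the MMF samples, a log2 difference of -0.77 with an adjusted p of 0.0558 on rank scores and 0.0211 on log2 summit signal by limma. It was the 1 of the 25 called on log2 summit signal, where 2.73% of all highest promoter regions were called higher and 1.12% lower. Next came E2f6, a repressor of the E2F family, at -0.30 with overlapping samples. In the other direction Cdkn2a, which encodes p16 and p19ARF, read 56.3, 60.7 and 56.4 against 61.6, 72.2 and 68.0, and Cdk2, the partner of cyclin E, differed by 0.10 with overlapping samples. Centring turned the 4 higher promoters, so that 25 of 25 were lower on that scale, as were 92.8% of all highest promoter regions.

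Among 20 genes driven by E2F factors, such as those of the replication helicase and of nucleotide synthesis, limma on rank scores also called 0 promoters, beside the 0.143% and 0.372% of all highest promoter regions. Their median log2 difference was -0.20, with 19 of 20 lower on average, and 7 (35.0%) were lower in every MMF sample: Mcm4, Mcm5, Pcna, Cdt1, Tyms, Gins1 and Uhrf1. Of all highest promoter regions 67.1% were lower on average and 17.1% in every MMF sample, and no test was made of the difference. The largest difference was at Gins1, a subunit of the replication helicase complex, with 111, 95.5 and 103 in the control and 83.6, 72.2 and 91.6 in the MMF samples (-0.33). At Uhrf1, which maintains DNA methylation, it was -0.28, from 130, 145 and 129 to 112, 119 and 102. Rrm1, a subunit of ribonucleotide reductase, was the only gene of the 20 higher on average, at 0.04, with Rrm2 of the same enzyme at -0.18 and samples that overlapped in both. On the centred scale all 20 were lower, beside 92.8% of all highest promoter regions.

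The sequences of the member regions resembled those of all regions in the motifs they held. In the 200 bp around the summit, CCAAT was found in 24.8% of the 202 member regions and 23.5% of all 112852 regions, TGANTCA (AP-1) in 13.9% and 16.1%, TTGCNNAA (C/EBP) in 11.9% and 14.97%, GAGGAAGT (PU.1) in 8.42% and 8.28%, AACCACA (RUNX) in 7.92% and 10.7%, and the CTCF consensus in 6.44% and 6.26%. TTCCCGC, the letters of an E2F site, was found in 6 member regions (2.97%), against 1.56% of all regions. CCGGAAGT (ETS) was found in 0 of the 202, against 1.30% of all regions. Both strands were searched, and matches to different motifs can overlap. The 6 regions with the E2F letters included the promoter region of Cdkn2c and the shared regions of Ccnd1 at -1.72 and -3.62 kb. None of these 3 was separated between the groups.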

How the data were processed

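ATAC-seq was performed on sorted L-GMP cells, with 3 control samples and 3 of MMF-treated cells. Per the labels and the study's methods, the authors mapped reads to mm10 with Bowtie2 after Trim Galore and FastQC and called peaks with MACS2 on each sample. The deposited lists give each peak a fold enrichment (a ratio to the local background), p and q as −log10 values, and a score that was not used. Versions and MACS2 options are not given in the sources used here.

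Reads over each summit were solved from fold enrichment, (reads + 1) / (background + 1), and the Poisson p, and came out whole for 99.9968% of peaks or more in each list. Summit signal is this number over the genome-wide background of the sample. That background was estimated as a value near the lowest of the backgrounds solved at the peaks of the sample and was not measured separately. Peaks outside chromosomes 1 to 19, X and Y were dropped, and those sharing at least 1 bp were merged. Shared regions (peaks in all 6 lists) were fitted with limma 3.58.1 in R 4.3.3, with no block, on normal scores of the ranks by fold enrichment, and called at an adjusted p of 0.05. Solving, merging and the limma step were tested on simulated data. Single values were compared by exact permutation over samples. Promoters lay within 1 kb of a start of a protein-coding transcript in GENCODE M21, and sequences came from GRCm38.

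The members and gene lists were chosen with earlier results of these data known. Named regions were, for each gene, the highest shared promoter and the highest other shared region, all called, gained or lost regions, and the 3 largest differences in each direction among regions whose samples did not overlap. From the other lists, genes called by limma and the 2 largest differences in each direction were named. Other regions in the text were named after their values were seen. Alternatives were other measures, scalings, thresholds, list lengths and overlaps, a replicate block and the removal of each sample.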

Additional observations from a re-analysis of the deposited data

How the results depend on the processing

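Of 97 shared member regions, limma called 0 higher and 0 lower on rank scores. On log2 summit signal it called 15 higher (beside 18.6% of all shared regions) and 0 lower (beside 0.969%). With equal list lengths it called 0 of 88 higher (beside 2.70% of all) and 2 of 88 lower (beside 1.08% of all). Those 2 lay in introns of Cdk6 (153 kb) and Ccnd3 (19.2 kb). Ranking by −log10 p, centred log2 fold enrichment and a −log10 q of at least 2 gave 0 in either direction, where they called 1.29% to 2.47% of all regions higher and 0.456% to 1.26% lower. So did a peak in at least 4 lists and the removal of each sample, but these fits called 0 to 12 regions in the whole genome and say nothing about stability. The median log2 difference of the member regions turned from 0.08 to -0.16 on centred log2 fold enrichment and to -0.28 on centred summit signal, and ranged from 0.03 without control replicate 3 to 0.12 without MMF replicate 3. The median rank score difference, -0.18, was -0.11 when ranked by −log10 p, and between -0.19 and -0.11 without 1 sample. Gained regions, 5, became 3 of 167 with equal list lengths (2.35% of all regions), 8 where peaks had to cover 50% of a region, and 8 to 14 without 1 sample, 14 of them without control replicate 3. Lost regions, 0, became 1 of 167 with equal list lengths (Cdk6 at 96.7 kb, where 1.37% of all regions were lost) and 0 to 2 without 1 sample. For the coverage rule and the removal of 1 sample the shares over all regions were not counted. Removal of a sample loosens the rule for every region, so those counts cannot be called many or few. The difference in peaks over the 10 windows, 30.0, turned to -7.67 with equal list lengths and to -2.51 per 10000 peaks. For single windows it turned to -1.67 (equal lengths) and -0.0498 (per 10000) at Cdk6, to -0.333 and -0.142 at Rb1, to -1.67 and -0.801 at Ccnd3, to -1.67 and -0.291 at Cdkn1b, to -1.33 and -0.321 at E2f1, and per 10000 to -0.238 at Ccnd1 and -0.251 at Ccne1. The cause of these shifts was not tested. On centred log2 fold enrichment, an alternative chosen after seeing the data, the Rb1 region at 103 kb differed by 0.37 and the promoter of Taf8 by -0.48.

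With the replicate number as a block, limma called 0 member regions in either direction, and 0 of all shared regions. That fit called nothing anywhere, so its lack of calls among the members says nothing about them. Same-numbered samples correlated at 0.00296 to 0.00698 in their deviations from the group means, so the numbers were not used as pairs.

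The median summit held 14 to 19 reads, and a region without a peak has no value, so differences below the calling threshold were not detectable. Groups of 3 samples allow no exact p below 0.1 for a single region.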
